A study of Lycium barbarum and Lycium ruthenicum with 30 samples.

Results

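Ripe fruit of Lycium barbarum (LB), the red wolfberry or goji, was compared with young fruit of the same species. Ripe fruit (S5) was sampled 34 to 45 days after flowering and young fruit (S1) 9 to 12 days after flowering, with 3 libraries each. The series holds 30 libraries from LB and from L. ruthenicum (LR), the black wolfberry, at 5 stages, and LR fruit of S5 and S1 is used below for 1 comparison between the species. All fruit was labelled wild type, and no treatment was named. The LB shrubs were cultivated and watered in a nursery, whereas the LR shrubs grew wild elsewhere. In that comparison the effects of species, growing place and water supply cannot be told apart. Each library came from fruit of 1 tree, and RNA was taken from the fruit as a whole. A lower level can therefore mean less RNA per cell or fewer cells of a tissue, which cannot be told apart in such samples. The LB libraries are the columns with code R, which the paper gives to the red species. In the sample titles the 2 species are swapped, and the code was followed. A library name such as LB5-2 stands for library 2 of LB at S5.

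The levels are FPKM, fragments scaled to transcript length and to the mapped fragments of the library, for unigenes, the clusters of assembled transcripts that stand for genes. A unigene was counted as expressed here if it reached an FPKM of 1 in at least 3 of the 6 LB libraries, which held for 66783 of 326276 unigenes, or 20.5%. Just inside this limit 12820 unigenes reached it in exactly 3 libraries, and just outside it 14469 did so in exactly 2. Differences are S5 minus S1 of log2 (FPKM + 0.5) and are given with their standard error (SE). The offset of 0.5 understates the change of unigenes with low levels. Where every library of a stage was listed at 0, the size of the difference depends on the offset and is no estimate of a fold. Calls needed an adjusted p of limma under 0.01 together with a difference of at least 1 on the log2 scale. With 3 libraries in each stage the smallest two-sided p of an exact permutation test is 0.1, so the adjusted p rests on the model of limma.

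Young fruit of this kind is green, still grows and lays down cell walls, whereas ripe fruit is soft, coloured and rich in sugars. The phenylpropanoid pathway starts from phenylalanine and makes hydroxycinnamic acids, the precursors of lignin, and the starting compounds of flavonoids. Its early enzymes are shared by all of these products. Reductases and dehydrogenases then make the lignin alcohols, which peroxidases join into lignin, while glucosyltransferases and beta-glucosidases add sugar to such compounds or take it off.

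Library LB5-2 stood apart from the other S5 libraries. Across the 66783 unigenes the Pearson r of log2 (FPKM + 0.5) was 0.87 and 0.877 between LB5-2 and the others of S5 and 0.918 between LB5-1 and LB5-3. It was 0.886 to 0.906 within S1 and 0.598 to 0.652 between the stages. Of 24679 unigenes averaging an FPKM of 10 or more at S5, LB5-2 was over 3-fold above both others for 853 and over 3-fold below both for 657. LB5-1 was so for 98 and 337 unigenes, and LB5-3 for 133 and 206. For single unigenes and enzyme sums of S5 the value of LB5-2 is therefore given on its own, as the second of the 3. Depth was read from the step between low FPKM values, which shrinks as more fragments are sequenced. Relative to LB1-1 it was 1, 0.902 and 0.896 in LB5-1, LB5-2 and LB5-3, against 1.23 and 1.06 in LB1-2 and LB1-3. Counting errors of single values are unknown, since counts per unigene were not used here.

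More unigenes fell than rose between S1 and S5. At S5 5704 expressed unigenes were called higher and 9116 lower, which is 8.54% and 13.7% of those expressed. At an unadjusted p under 0.05 28252 differed. The fall was 8-fold or more for 3137 unigenes and the rise for 1818. The median difference of all expressed unigenes was -0.11 on the log2 scale, and median-of-ratios scaling moved it to 0.0092. With that scaling 6359 were called higher and 8204 lower, and a fit to the 6 libraries alone called 2196 higher and 4355 lower. Without LB5-2 the counts were 4836 higher and 8439 lower.

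Many unigenes were listed at 0 throughout 1 of the stages. An FPKM of 1 or more in all 3 S5 libraries with a value of 0 in all 3 S1 libraries was listed for 659 unigenes and the reverse pattern for 1524. Such unigenes counted as expressed only through the stage where they were high, so their calls are no independent support. The counts of calls above include 590 of the former and 1448 of the latter. Some are named below with the adjusted p of the fit, as descriptions only. Among the 40169 unigenes at an FPKM of 1 or more in all 6 libraries, 2895 were called higher and 3270 lower (7.21% and 8.14%). The most abundant unigenes took a smaller share in ripe fruit. The 10 most abundant unigenes took 9.35%, 10.1% and 9.43% of the FPKM in the S5 libraries, against 15%, 13.2% and 14.5% in the S1 libraries.

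Among unigenes without an annotation in the sources used here, the largest rises and falls are given next. TRINITY_DN73379_c1_g1 had 1255, 27921 and 2579 FPKM at S5 and was listed at 0 in all 3 S1 libraries (difference 13.13 ± 1.37, adjusted p = 9.31e-08). TRINITY_DN72972_c1_g1 had 1605, 43090 and 3615 FPKM at S5, against 0, 0 and 1.11 at S1 (13.06 ± 1.27, adjusted p = 3.33e-08). Both were far above the other S5 libraries in LB5-2, and at S4 they already averaged 10741 and 17145 FPKM. In the other direction TRINITY_DN53915_c0_g1 was listed at 0 in all 3 S5 libraries and had 16511, 21047 and 11843 FPKM at S1 (-14.97 ± 0.49, adjusted p = 8.38e-16). TRINITY_DN64471_c5_g4 was also listed at 0 throughout S5, against 14147, 14511 and 15884 FPKM at S1 (-14.86 ± 0.42, adjusted p = 4.15e-17). Their course differed in between. TRINITY_DN53915_c0_g1 averaged 2047 FPKM at S2 and 297 at S3, while TRINITY_DN64471_c5_g4 still had 12656 at S2 and 502 at S3.

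The phenylpropanoid pathway was described over the unigenes that the study assigned to 14 enzymes. It chose them on LB libraries that include these 6, so their directions are not independent evidence. By the rule above 109 of them were expressed and 4 were not, of which 2 were tested and 2 were not tested. At S5 25 of the 109 were called higher (22.9%) and 65 lower (59.6%), beside 8.54% and 13.7% of all expressed unigenes, and 19 were not called. Their median difference was -2.78, beside -0.11 for all expressed unigenes. Calls went in both directions within 4 of the enzymes, which are shikimate O-hydroxycinnamoyltransferase, cinnamyl-alcohol dehydrogenase, peroxidase and beta-glucosidase, and the enzymes are described one by one below.

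**Figure D1:**
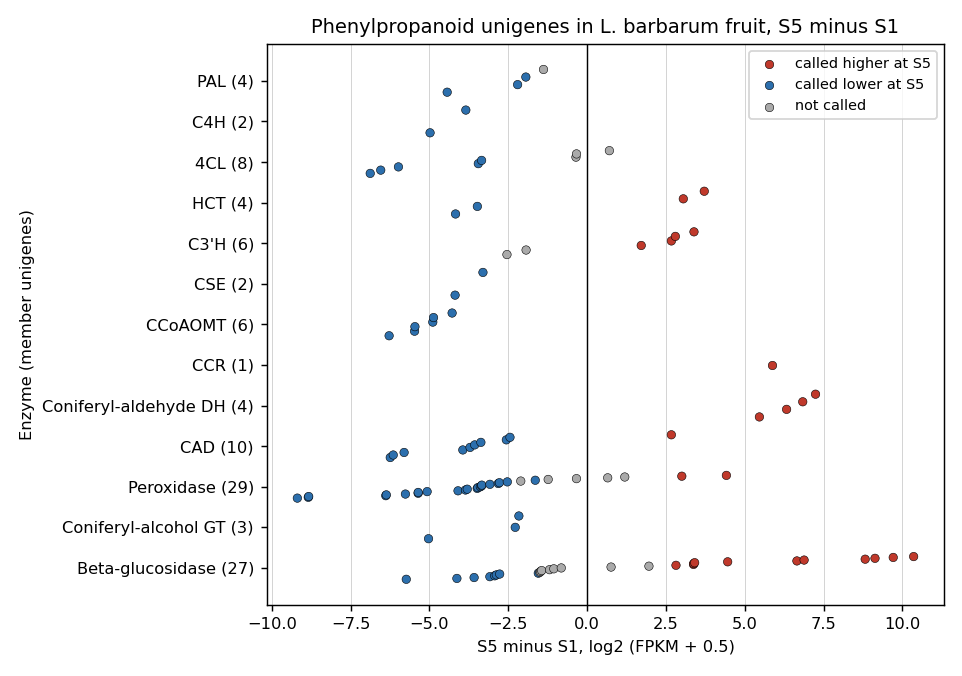
Difference S5 minus S1 in LB fruit, on the log2 (FPKM + 0.5) scale, of expressed phenylpropanoid unigenes (points) of 13 of the 14 enzymes, by enzyme in pathway order with the number of unigenes in brackets. PAL, phenylalanine ammonia-lyase; C4H, trans-cinnamate 4-monooxygenase; 4CL, 4-coumarate-CoA ligase; HCT, shikimate O-hydroxycinnamoyltransferase; C3'H, coumaroylshikimate 3'-monooxygenase; CSE, caffeoylshikimate esterase; CCoAOMT, caffeoyl-CoA O-methyltransferase; CCR, cinnamoyl-CoA reductase; CAD, cinnamyl-alcohol dehydrogenase; DH, dehydrogenase; GT, glucosyltransferase. Colour gives the call, and the 4 coniferyl-aldehyde dehydrogenases all lie between 5.47 and 7.25.

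The entry enzymes were lower in ripe fruit. Phenylalanine ammonia-lyase (PAL), which makes cinnamic acid from phenylalanine, had 3 of 4 unigenes called lower. The highest of them at S1, TRINITY_DN91492_c2_g1, had 7.67, 3.37 and 4.13 FPKM at S5, against 113.2, 152.1 and 85.3 FPKM at S1 (-4.44 ± 0.61, adjusted p = 4.86e-06). TRINITY_DN100508_c2_g5 had 25.7, 17.4 and 16.9 FPKM at S5, against 70.7, 88.4 and 72.8 FPKM at S1 (-1.94 ± 0.49, adjusted p = 0.00459). TRINITY_DN65745_c2_g1 had 6.07, 2.58 and 3.52 FPKM at S5, against 17, 23.2 and 18.7 FPKM at S1 (-2.20 ± 0.54, adjusted p = 0.00368). The stages did not overlap for any of these. The fourth, TRINITY_DN66948_c1_g4, did not overlap between the stages either but was not called (-1.38 ± 0.44, adjusted p = 0.0242). The calls of TRINITY_DN100508_c2_g5 and TRINITY_DN65745_c2_g1 were lost without any of 5 and any of 4 of the 6 libraries, with adjusted p of 0.0125 to 0.0216 and of 0.0117 to 0.0234. TRINITY_DN100508_c2_g5 kept its call only without LB5-1, and TRINITY_DN65745_c2_g1 without LB1-1 or LB5-1. In the fit to the 15 LB libraries neither was called (adjusted p = 0.0132 and 0.017).

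Trans-cinnamate 4-monooxygenase (C4H), the P450 that adds the first hydroxyl group to the ring, had both unigenes called lower. TRINITY_DN77732_c4_g1 had 3.37, 1.77 and 3.93 FPKM at S5, against 102, 150 and 79.2 FPKM at S1 (-4.98 ± 0.45, adjusted p = 1.07e-08). TRINITY_DN92590_c2_g2 had 0.31, 0.09 and 0.17 FPKM at S5, against 10.2, 8.96 and 8.91 FPKM at S1 (-3.85 ± 0.71, adjusted p = 0.000233). 4-coumarate-CoA ligase (4CL), which activates coumaric acid, was split by type. The 5 unigenes annotated as 4CL 2 or 4CL 2-like were all called lower, by 3.35 to 6.88 on the log2 scale. The strongest fall was that of TRINITY_DN88770_c1_g6, which had 1.89, 0.52 and 1.64 FPKM at S5, against 211, 275 and 146 FPKM at S1 (-6.88 ± 0.69, adjusted p = 5.47e-08). The other 3, annotated as 4CL-like 1-like, 6 and 7, were not called, and 1 of them, TRINITY_DN98066_c0_g4, was at 82.1, 90.9 and 84.6 FPKM at S5, against 52.3, 53.1 and 51.6 FPKM at S1 (adjusted p = 0.0576).

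The next steps, through shikimate esters, went in both directions. Shikimate O-hydroxycinnamoyltransferase (HCT), which couples coumaroyl-CoA to shikimate, had 2 unigenes called lower and 2 called higher of 4 expressed. TRINITY_DN90116_c2_g1, annotated as a putative hydroxycinnamoyl transferase, had 11.1, 14.9 and 15.1 FPKM at S5, against 248, 345 and 188 FPKM at S1 (-4.17 ± 0.51, adjusted p = 1.02e-06). TRINITY_DN98829_c5_g2 had 26.6, 22 and 38.5 FPKM at S5, against 2.62, 1.04 and 1.68 FPKM at S1 (3.72 ± 0.35, adjusted p = 1.58e-08). Its protein match was to a deacetylvindoline O-acetyltransferase-like protein, an acyltransferase name of alkaloid metabolism, so its place in HCT rests on the class assignment. Summed over the 5 HCT unigenes the level was 41.5, 40.9 and 57.8 FPKM at S5, against 262, 349 and 203 FPKM at S1.

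Coumaroylshikimate 3'-monooxygenase (C3'H), the P450 that hydroxylates the ester, did not differ between the stages in its summed level beyond the spread of the libraries. Its 6 unigenes summed to 83.7, 100.3 and 110.6 FPKM at S5, against 70.6, 123 and 106 FPKM at S1, and the stages overlapped. The single unigenes differed. Of the 6, 4 were called higher and none lower. TRINITY_DN88632_c1_g2 had 21.6, 40.8 and 30.1 FPKM at S5, against 1.81, 5.22 and 1.33 FPKM at S1 (3.39 ± 0.58, adjusted p = 8.35e-05). The 2 most abundant at S1, TRINITY_DN87670_c2_g1 and TRINITY_DN97146_c3_g2, were at -1.93 and -2.54 without passing the test (adjusted p = 0.0221 and 0.0165). In the fit to the 6 libraries alone TRINITY_DN88632_c1_g2 was not called (adjusted p = 0.0167). Caffeoylshikimate esterase (CSE), which releases caffeic acid from the ester, had both unigenes called lower. TRINITY_DN99848_c3_g6 had 21.2, 11.6 and 16.4 FPKM at S5, against 301, 375 and 236 FPKM at S1 (-4.19 ± 0.36, adjusted p = 3.87e-09). TRINITY_DN99848_c3_g5 of the same assembly component had 33, 26 and 26.6 FPKM at S5, against 305, 345 and 218 FPKM at S1 (-3.30 ± 0.37, adjusted p = 2.86e-07).

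All 6 expressed unigenes of caffeoyl-CoA O-methyltransferase (CCoAOMT), which methylates caffeoyl-CoA on the way to lignin, were called lower, by 4.28 to 6.28 on the log2 scale. Their sum, with the 1 CCoAOMT unigene that was not expressed, was 108.6, 50.6 and 97.4 FPKM at S5, against 3524, 4127 and 2037 FPKM at S1, and the ratio of the means was 0.0265. TRINITY_DN72819_c1_g1 fell most, with 0.18, 0.67 and 0.69 FPKM at S5, against 70.4, 104 and 59.4 FPKM at S1 (-6.28 ± 0.52, adjusted p = 2.29e-09).

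Cinnamoyl-CoA reductase (CCR), the enzyme that opens the lignin-specific branch by making the aldehydes, went the other way. Its 1 unigene, TRINITY_DN84683_c0_g2, had 752, 452 and 639 FPKM at S5, against 18.8, 12.7 and 3.8 FPKM at S1 (5.86 ± 0.57, adjusted p = 3.33e-08). It averaged 140 FPKM at S2, 594 at S3 and 535 at S4. Coniferyl-aldehyde dehydrogenase, which oxidises the aldehydes to ferulic and sinapic acid, rose in 4 of 4 unigenes. TRINITY_DN91848_c1_g4 had 2815, 2359 and 2560 FPKM at S5, against 16.3, 14.3 and 19 FPKM at S1 (7.25 ± 0.32, adjusted p = 9.98e-14). The 3 S5 libraries were close to each other in this unigene, LB5-2 included. In the others LB5-2 was lowest. TRINITY_DN91848_c1_g3 had 2131, 889 and 1930 FPKM at S5, against 6.18, 26.1 and 13.2 FPKM at S1 (6.84 ± 0.90, adjusted p = 2.91e-06). TRINITY_DN91848_c1_g2 had 1481, 362 and 1200 FPKM at S5, against 9.7, 8.67 and 12.8 FPKM at S1 (6.33 ± 0.57, adjusted p = 1.03e-08). TRINITY_DN72438_c0_g2 had 2570, 1227 and 2534 FPKM at S5, against 46, 38.2 and 51 FPKM at S1 (5.47 ± 0.66, adjusted p = 8.36e-07). Of these, 3 belong to 1 assembly component and may be pieces or copies of 1 gene, so their number and sum do not count genes. Summed, the 4 had 8997, 4837 and 8224 FPKM at S5, against 78.2, 87.3 and 96 FPKM at S1.

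**Figure D2:**
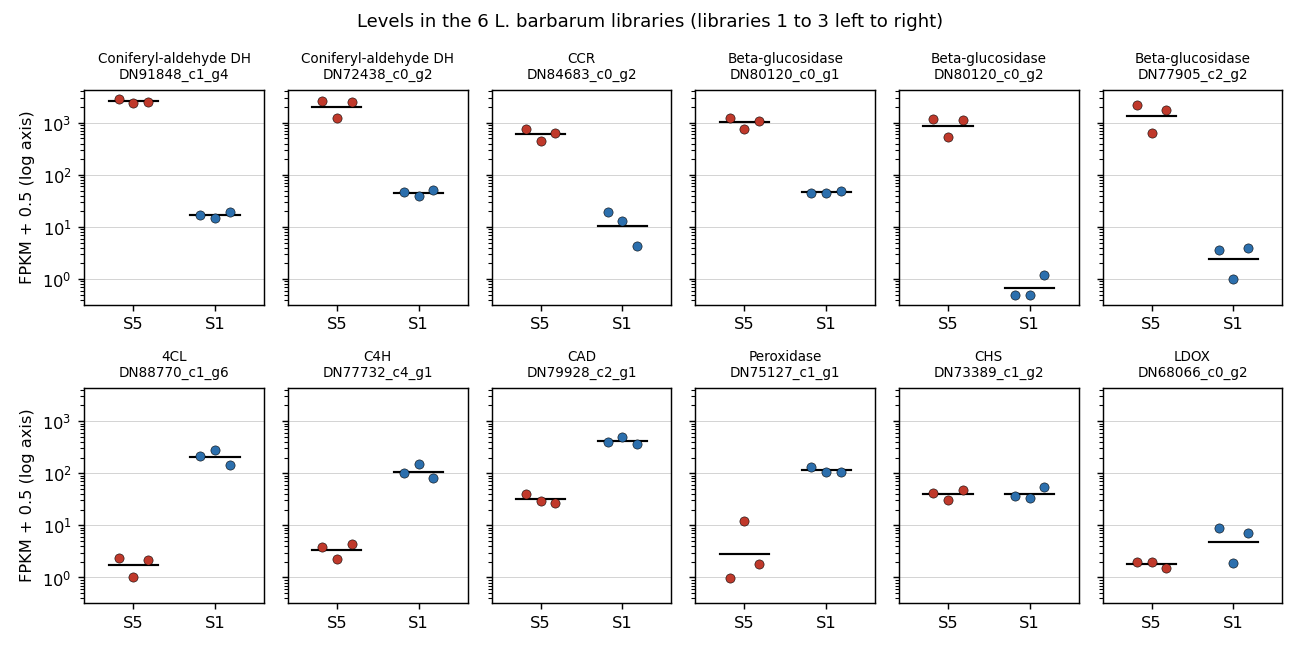
FPKM + 0.5 on a log axis in each of the 6 LB libraries for 12 unigenes, with S5 (red) left of S1 (blue), libraries 1 to 3 from left to right within a stage and the mean of the logarithms as a bar. DH, dehydrogenase; CHS, chalcone synthase; LDOX, leucoanthocyanidin dioxygenase. The 6 unigenes of the upper row lie higher in all S5 libraries, 4 of the lower row lie lower in all of them, and the stages overlap for CHS and LDOX.

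Cinnamyl-alcohol dehydrogenase (CAD), which reduces the aldehydes to the lignin alcohols and so uses the same substrates as coniferyl-aldehyde dehydrogenase, was called lower in 9 of 10 unigenes and higher in 1. The sum was 140, 114 and 137 FPKM at S5, against 1292, 1532 and 1121 FPKM at S1. Several of these unigenes are annotated as 8-hydroxygeraniol dehydrogenase-like or mannitol dehydrogenase, relatives of CAD with other substrates. TRINITY_DN94308_c2_g5, matched to sinapyl alcohol dehydrogenase 2, was listed at 0 in all 3 S5 libraries and had 34.8, 41.3 and 36.3 FPKM at S1 (-6.24 ± 0.44, adjusted p = 1.69e-10). TRINITY_DN94308_c2_g4 had 0.12, 0 and 0.4 FPKM at S5, against 53.7, 41.9 and 42.8 FPKM at S1 (-6.15 ± 0.39, adjusted p = 2.88e-11). TRINITY_DN79928_c2_g1, the most abundant of the class at S1, had 40.2, 29.3 and 26.5 FPKM at S5, against 404, 493 and 368 FPKM at S1 (-3.71 ± 0.52, adjusted p = 7.72e-06). The exception was TRINITY_DN69029_c1_g1, with 19.5, 5.11 and 13.6 FPKM at S5, against 0.93, 2.38 and 0.98 FPKM at S1 (2.67 ± 0.51, adjusted p = 0.000316). It was not called in the fit to the 6 libraries alone (adjusted p = 0.0454).

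Peroxidases, which oxidise lignin alcohols in the cell wall and have many other roles, held the largest single falls of the 14 enzymes. Of 29 expressed, 22 were called lower, 2 higher and 5 not called, with a median difference of -3.38. In 16 of the 22 no S5 library reached an FPKM of 1, and in 10 of them all 3 were listed at 0. TRINITY_DN76898_c0_g2 (peroxidase 5-like) was listed at 0 in the S5 libraries and had 224, 371 and 297 FPKM at S1 (-9.19 ± 0.77, adjusted p = 2.75e-09). TRINITY_DN69256_c3_g1 (peroxidase 15-like) was listed at 0 there too, against 192, 191 and 318 FPKM at S1 (-8.83 ± 0.90, adjusted p = 6.83e-08). TRINITY_DN67843_c3_g3 (peroxidase 64-like) had 0, 0.05 and 0 FPKM at S5, against 293, 362 and 125 FPKM at S1 (-8.84 ± 0.61, adjusted p = 1.32e-10). Some peroxidase RNA stayed in ripe fruit. TRINITY_DN75127_c1_g1 (peroxidase 43-like) had 0.49, 11.6 and 1.3 FPKM at S5, against 133, 104 and 106 FPKM at S1 (-5.36 ± 0.74, adjusted p = 5.48e-06), and LB5-2 carried most of what was left. It was not called in the fit to the 6 libraries alone (adjusted p = 0.0275).

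The peroxidases that were called higher were TRINITY_DN100523_c4_g5 (peroxidase 3), with 14.4, 11 and 11.3 FPKM at S5, against 0, 0 and 0.33 FPKM at S1 (4.42 ± 0.31, adjusted p = 2.25e-10), and TRINITY_DN76654_c0_g1 (cationic peroxidase 1-like), with 3.42, 3.24 and 4.17 FPKM at S5, against 0.03, 0 and 0 FPKM at S1 (3.00 ± 0.24, adjusted p = 1.54e-09). Neither was abundant. Within the 31 peroxidase unigenes assigned to this pathway, most of the summed FPKM at S5 came from unigenes that were not called. Examples are TRINITY_DN80748_c3_g1 (peroxidase 17), with 154, 163 and 168 FPKM at S5, against 122, 71.4 and 123 FPKM at S1 (adjusted p = 0.424), and TRINITY_DN101651_c2_g4 (peroxidase 17-like), with 90.8, 41.9 and 95.6 FPKM at S5, against 91.7, 70.6 and 114 FPKM at S1 (adjusted p = 0.9). These 2 were chosen after their values were seen. The sum over the 31 peroxidase unigenes was 348, 312 and 368 FPKM at S5, against 1731, 1952 and 1878 FPKM at S1.

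Coniferyl-alcohol glucosyltransferase, which stores the lignin alcohol as a glucoside, was called lower in 3 of 3 unigenes, all of them annotated as anthocyanidin 3-O-glucosyltransferase 5-like. TRINITY_DN73583_c0_g1 had 0.17, 0 and 0 FPKM at S5, against 11.6, 24.2 and 19 FPKM at S1 (-5.03 ± 0.66, adjusted p = 2.76e-06). TRINITY_DN92234_c0_g1 had 2.28, 1.73 and 2.18 FPKM at S5, against 9.9, 15.7 and 10.8 FPKM at S1 (-2.28 ± 0.39, adjusted p = 8.72e-05). TRINITY_DN92234_c0_g2 had 2.55, 5.68 and 3.32 FPKM at S5, against 13.6, 22.5 and 19.5 FPKM at S1 (-2.16 ± 0.47, adjusted p = 0.00128). Without LB5-1 that last difference was -1.94 and not called (adjusted p = 0.0104). The fit to the 6 libraries alone gave no call either (adjusted p = 0.0191).

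Beta-glucosidases, which release glucose from such conjugates among other substrates, divided by annotation. Of 27, 11 were called higher and 8 lower. All 11 that rose are annotated as beta-glucosidase 11-like, and no unigene of that name fell. The 12th of the name, TRINITY_DN100868_c3_g1, had 31.0, 15.6 and 38.2 FPKM at S5, against 4.56, 7.15 and 8.11 FPKM at S1, without a call (1.96, adjusted p = 0.0123). Summed, the 12 had 29667, 14327 and 26578 FPKM at S5, against 272, 159 and 205 FPKM at S1, a ratio of the means of 111. LB5-2 was the lowest S5 library in 10 of the 12. Several of the 12 share an assembly component and may be pieces or near copies of 1 gene, so the sum is not the level of a gene.

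The largest rise among them was that of TRINITY_DN80120_c0_g2, with 1172, 522 and 1124 FPKM at S5, against 0, 0 and 0.72 FPKM at S1 (10.36 ± 0.49, adjusted p = 2.81e-13). TRINITY_DN80120_c0_g3 had 7421, 5172 and 6668 FPKM at S5, against 47.8, 17.5 and 0 FPKM at S1 (9.71 ± 1.23, adjusted p = 1.64e-06). In this unigene the S1 libraries differed widely from each other, and the fit to the 6 libraries alone gave no call (adjusted p = 0.0301). TRINITY_DN77905_c2_g2 had 2189, 646 and 1798 FPKM at S5, against 3.13, 0.5 and 3.47 FPKM at S1 (9.13 ± 0.60, adjusted p = 6.69e-11). TRINITY_DN80120_c0_g1, in the same component as the first, was already present in young fruit, with 1242, 777 and 1078 FPKM at S5, against 43.5, 44.7 and 48.8 FPKM at S1 (4.46 ± 0.41, adjusted p = 1.29e-08). The most abundant, TRINITY_DN100868_c4_g2, chosen after its values were seen, had 9914, 4891 and 9602 FPKM at S5, against 112, 50.4 and 79.0 FPKM at S1 (6.66, adjusted p = 1.14e-09).

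The beta-glucosidases that fell carried other names. TRINITY_DN71026_c1_g1 (furcatin hydrolase-like) had 0.22, 0.73 and 0.6 FPKM at S5, against 45.1, 75.0 and 42.2 FPKM at S1 (-5.74 ± 0.47, adjusted p = 2.31e-09). TRINITY_DN73374_c0_g1 (lysosomal beta glucosidase) had 1.97, 2.33 and 2.09 FPKM at S5, against 42.9, 49.8 and 44.0 FPKM at S1 (-4.13 ± 0.53, adjusted p = 1.82e-06). TRINITY_DN91570_c3_g1 (vicianin hydrolase-like) had 21.6, 9.38 and 19.9 FPKM at S5, against 161, 321 and 147 FPKM at S1 (-3.58 ± 0.60, adjusted p = 6.64e-05). They were named by a rule that takes only unigenes whose stages do not overlap. The last was not called in the fit to the 6 libraries alone (adjusted p = 0.0109) or to the 15 LB libraries (adjusted p = 0.0117).

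**Figure D3:**
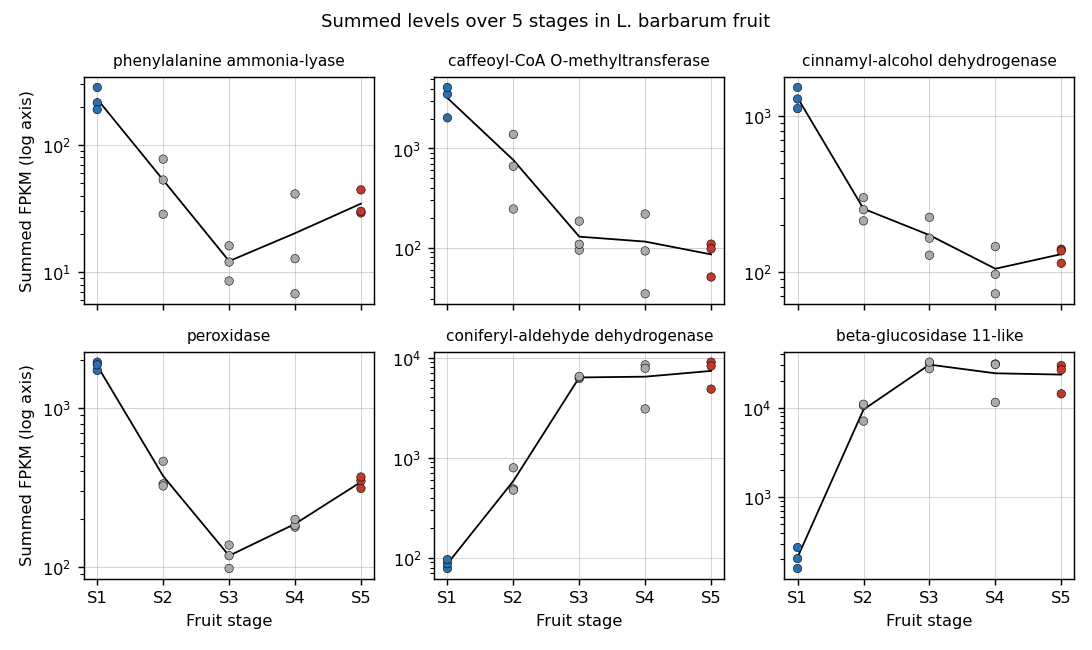
Summed FPKM of 6 enzyme groups, on a log axis, in each LB library (points, S1 blue and S5 red) at the 5 fruit stages, with the mean of 3 libraries as a line. The sums of coniferyl-aldehyde dehydrogenase reach a mean of 6326 by S3 and 7353 at S5, and those of phenylalanine ammonia-lyase are lowest at S3, with a mean of 12.2.

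The stages in between placed most of the change before S4. The summed level of the beta-glucosidase 11-like unigenes averaged 212 FPKM at S1, 9543 at S2, 30425 at S3, 24319 at S4 and 23524 at S5. The means of S4 and S5 were pulled down by 1 library each, with 11474 FPKM in LB4-3 against 30929 and 30553 in the others of S4, and with LB5-2 at S5. Coniferyl-aldehyde dehydrogenase averaged 87.2 FPKM at S1, 585 at S2, 6326 at S3, 6440 at S4 and 7353 at S5. LB4-3 was low here too, with 3068 FPKM against 8448.8 and 7803 in the others of S4. On the falling side CCoAOMT averaged 3230 FPKM at S1, 765 at S2, 129 at S3, 115 at S4 and 85.5 at S5. Several of the falling enzymes were not lowest at S5. CAD averaged 1315 FPKM at S1, 255 at S2, 172 at S3, 105 at S4 and 130 at S5. PAL averaged 229 FPKM at S1, 53.0 at S2, 12.2 at S3, 20.3 at S4 and 34.6 at S5. The peroxidases averaged 1853 FPKM at S1, 373 at S2, 117 at S3, 186 at S4 and 342 at S5. These courses are descriptions, and the differences between the middle stages were not tested.

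Neither of the unigenes read for anthocyanin enzymes was called in red fruit. Each enzyme was read from a single unigene. The paper also reports a further chalcone synthase paralogue and other anthocyanin genes, which were not examined by name here. Chalcone synthase (CHS), the first enzyme of the flavonoid branch, was measured by TRINITY_DN73389_c1_g2, which had 41.2, 29.6 and 47.2 FPKM at S5, against 35.7, 32.5 and 54.6 FPKM at S1 (-0.05 ± 0.64, adjusted p = 1). The stages overlapped fully, and the sign of this small difference changed under 4 of 14 alternative settings. Leucoanthocyanidin dioxygenase (LDOX), which makes the coloured anthocyanidins, was measured by TRINITY_DN68066_c0_g2, with 1.46, 1.46 and 1 FPKM at S5, against 8.39, 1.37 and 6.51 FPKM at S1 (-1.45 ± 0.55, adjusted p = 0.0607). LB1-2 was as low as the S5 libraries, and without it LDOX was called lower (-2.14 ± 0.53, adjusted p = 0.00514). In LR fruit the same unigenes averaged 3414 and 2948 FPKM at S5, against 10.8 and 12.4 FPKM at S1, so the high levels of both at S5 stand under code B.

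The other pathways were described over 24 lists of unigenes that the study tied to pathways. At most 18 unigenes of a list could be read, and only 2 lists were read whole. The study chose 14 of the lists on stage-dependent unigenes of LB, so their directions are not independent evidence, and 10 on those of LR. The lists hold 342 expressed unigenes, 46 of them in more than 1 list and 315 outside the phenylpropanoid enzymes. Of these 315, 43 were called higher and 160 lower, beside 8.54% and 13.7% of all expressed unigenes. Since the lists were chosen on stage-dependent unigenes, these counts and those by list are descriptions only. More members were called lower than higher in 21 lists, fewer in 2 and as many in 1. For unigenes of these lists outside the phenylpropanoid enzymes, no single function is given in the sources used here.

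The lists of light harvesting and photosynthesis, both chosen on LR and read in part, held falls and no rises. Of the 18 unigenes of antenna proteins, which gather light for the photosystems, 16 were called lower and none higher (median -3.11, beside -0.11 for all expressed unigenes). Their sum was 638 to 1219 FPKM in the S5 libraries, against 4656 to 8116 FPKM in the S1 libraries. TRINITY_DN67789_c3_g1 fell most and varied between fruit, with 14, 67.7 and 0 FPKM at S5, against 1228, 1682 and 1794 FPKM at S1 (-7.61 ± 1.5, adjusted p = 0.000473). It was not called in the fit to the 6 libraries alone (adjusted p = 0.0654). Of 18 photosynthesis unigenes 10 were called lower, none higher and 8 were not called. TRINITY_DN81637_c0_g1 had 0.69, 3.28 and 1.87 FPKM at S5, against 43.2, 51.7 and 65.6 FPKM at S1 (-4.60 ± 0.48, adjusted p = 8.58e-08).

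Carotenoids give red wolfberry its colour, yet the list of their synthesis, chosen on LR, did not move as 1 block. Of 16 unigenes 2 were called higher and 6 lower, with a median of -1.52. TRINITY_DN98117_c2_g1 had 5.05, 87.5 and 12.4 FPKM at S5 and was listed at 0 in all 3 S1 libraries (5.21 ± 0.78, adjusted p = 1.76e-05). Most of its S5 level came from LB5-2, and the fit to the 6 libraries alone gave no call (adjusted p = 0.0374). Flavonoid biosynthesis, also chosen on LR, had 14 of 18 called lower and none higher (median -3.94). It shares 7 unigenes with the phenylpropanoid enzymes, among them 6 of CCoAOMT and HCT TRINITY_DN90116_c2_g1, and outside these 7 of 11 were called lower. Flavone and flavonol biosynthesis, chosen on LB, had 2 of 10 called higher and 5 lower. Here TRINITY_DN97458_c3_g1 rose, with 98.2, 142 and 75.7 FPKM at S5, against 2.05, 1.8 and 1.82 FPKM at S1 (5.42 ± 0.38, adjusted p = 1.72e-10).

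Sugar and cell wall pathways differed in direction. Galactose metabolism, chosen on LR, had 10 of 16 called higher and 1 lower (median 3.33), with a sum of 1741 to 3724 FPKM in the S5 libraries, against 231 to 261 FPKM in the S1 libraries. TRINITY_DN94597_c1_g1 had 1136, 543 and 1204 FPKM at S5, against 0, 0 and 10.5 FPKM at S1 (9.34 ± 0.77, adjusted p = 2.51e-09, and 0.015 without a call in the fit to the 6 libraries alone). Pentose and glucuronate interconversions, a list that includes pectin breakdown and was chosen on LR, had 10 of 15 called lower and 3 higher (median -5.62). TRINITY_DN71038_c0_g1 had 0.07, 0.23 and 0.23 FPKM at S5, against 201, 352 and 245 FPKM at S1 (-8.59 ± 0.67, adjusted p = 8.78e-10). Starch and sucrose metabolism, chosen on LB, had 11 of 18 called lower and 2 higher. TRINITY_DN68847_c0_g1 had 0.06, 0.5 and 0.24 FPKM at S5, against 230, 501 and 188 FPKM at S1 (-8.55 ± 0.67, adjusted p = 1.17e-09). Amino sugar and nucleotide sugar metabolism, chosen on LB, had 11 of 17 called lower and 2 higher. TRINITY_DN76517_c1_g3 fell most there, with 0.05, 0.59 and 0 FPKM at S5, against 22.7, 39.4 and 36.3 FPKM at S1 (-5.60 ± 0.53, adjusted p = 2.13e-08).

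Lipid pathways were mixed. Linoleic acid metabolism and alpha-linolenic acid metabolism, of which the latter makes jasmonates, were both chosen on LB. Each had 13 of 17 called lower, against 2 and 3 called higher. TRINITY_DN97261_c2_g1, which stands in both, had 0.15, 0.86 and 1.37 FPKM at S5, against 584, 481 and 576 FPKM at S1 (-8.85 ± 0.63, adjusted p = 2.06e-10). Fatty acid elongation, chosen on LR, had 3 of 16 called higher and 4 lower, although its median was above 0 at 1.12. TRINITY_DN79372_c3_g1 had 459, 329 and 381 FPKM at S5, against 0.1, 0.22 and 0.18 FPKM at S1 (9.18 ± 0.51, adjusted p = 3.68e-12). Cutin, suberine and wax biosynthesis, which makes the fruit surface and was chosen on LR, had 2 of 9 called higher and 1 lower, although its median was below 0 at -0.97. TRINITY_DN75489_c0_g1 had 127, 116 and 158 FPKM at S5 and was listed at 0 in all 3 S1 libraries (8.05 ± 0.51, adjusted p = 3.96e-11). It averaged 12 FPKM at S3 and 57.5 at S4. Of the membrane lipid lists, glycerophospholipid metabolism had 3 of 16 called lower and 2 higher (18.8% and 12.5%), near the 13.7% and 8.54% of all expressed unigenes, and ether lipid metabolism had 7 of 17 lower and 1 higher. TRINITY_DN78589_c2_g3 of the ether lipids had 3.15, 2.9 and 2.34 FPKM at S5, against 282, 287 and 199 FPKM at S1 (-6.27 ± 0.53, adjusted p = 3.42e-09), and TRINITY_DN80876_c1_g2 of the glycerophospholipids had 0.07, 0.07 and 0 FPKM at S5, against 20.5, 30.4 and 6.86 FPKM at S1 (-4.95 ± 0.46, adjusted p = 1.81e-08). Steroid biosynthesis had 11 of 18 called lower and 2 higher. TRINITY_DN90117_c1_g2 had 0, 0.28 and 0 FPKM at S5, against 15.8, 24.6 and 18 FPKM at S1 (-5.08 ± 0.56, adjusted p = 2.24e-07). These last 3 lists were chosen on LB.

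Of the hormone, alkaloid and defence lists none had more rises than falls. Zeatin biosynthesis, which makes the cytokinins of dividing tissue, had 14 of 17 called lower and 1 higher. TRINITY_DN93336_c1_g2 had 1.01, 0.41 and 0.46 FPKM at S5, against 21.0, 19.7 and 19.1 FPKM at S1 (-4.22 ± 0.37, adjusted p = 6.46e-09). Plant hormone signal transduction had 6 of 18 called in each direction, and TRINITY_DN61432_c0_g2 fell, with 0.42, 0 and 0 FPKM at S5, against 43.9, 64 and 36.1 FPKM at S1 (-6.27 ± 0.38, adjusted p = 1.66e-11). Isoquinoline alkaloid biosynthesis had the highest share of falls, 15 of 16, with a median of -6.81. Its sum was 136 to 197 FPKM in the S5 libraries, against 5708 to 8328 FPKM in the S1 libraries. TRINITY_DN101468_c7_g4 had 0, 2.06 and 0 FPKM at S5, against 1110, 1673 and 1564 FPKM at S1 (-10.69 ± 1.32, adjusted p = 1.18e-06). These 3 lists were chosen on LB. Glutathione metabolism, chosen on LR, had 5 of 15 called lower and 2 higher, although its sum was 3433 to 4167 FPKM in the S5 libraries, against 894 to 1046 FPKM in the S1 libraries. That sum was carried by TRINITY_DN81207_c3_g2, with 3470, 2763 and 3246 FPKM at S5, against 114, 43.8 and 186 FPKM at S1 (5.00 ± 0.47, adjusted p = 2.09e-08). Plant-pathogen interaction, chosen on LR, had 7 of 14 called lower and 2 higher. TRINITY_DN89104_c1_g3 had 23.2, 7.72 and 17 FPKM at S5, against 0, 0 and 0.12 FPKM at S1 (4.81 ± 0.46, adjusted p = 2.08e-08).

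Ribosome unigenes, chosen on LB, had 4 of 18 called lower and none higher, beside 13.7% and 8.54% of all expressed unigenes, with a median of -0.27. TRINITY_DN92567_c5_g3 had 28.5, 68.8 and 17.6 FPKM at S5, against 144, 98.9 and 105 FPKM at S1 (-1.79 ± 0.42, adjusted p = 0.00266). Its call was lost without LB1-1, LB5-1 or LB5-3 (adjusted p = 0.0139 to 0.031) and in the fits to 6 and to 15 libraries (adjusted p = 0.1 and 0.0167). The 2 remaining lists, both chosen on LB, were made up mostly of phenylpropanoid unigenes. Cyanoamino acid metabolism, with 6 of 18 called higher and 8 lower, shares 12 with them and had no rise outside them. The list of stilbenoids, diarylheptanoids and gingerol, with 5 of 16 called higher and 9 lower, shares 15 and had no call outside them.

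Whether ripening changed a unigene more in red than in black fruit was tested as the S5 minus S1 difference of LB minus that of LR. It was called for 4913 expressed unigenes, or 7.36%, with 2165 above and 2748 below 0. Quality weights for the libraries raised the count to 7414. Of the 4913, 2016 were under an FPKM of 1 in all 6 LR libraries of S5 and S1. The unigenes counted as expressed by their LB levels alone, and 41900 of the 66783 passed the same rule in LR. The share under an FPKM of 1 in LR among all 66783 was not counted, so 2016 is a description only. Whether LR reads of such genes fell on other unigenes was not tested. Among 41900 unigenes expressed in both species by the same rule, 3288 were called higher in LB and 1941 in LR, with 939 in common, which is 28.6% and 48.4% of each set. Of 6123 called lower in LB and 4237 in LR, 2822 were shared, or 46.1% and 66.6%. Opposite calls were rare, with 71 unigenes higher in LB and lower in LR and 100 the other way round.

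Of the 109 phenylpropanoid unigenes 34 had a called difference between the species (31.2%, beside 7.36% of all expressed unigenes), 10 above and 24 below 0. The study chose these unigenes on LB libraries that enter this difference, so their share is a description only and no independent evidence. In 10 of the 34 no LR library of S5 or S1 reached an FPKM of 1, which held for 12 of all 109. Of the 4 coniferyl-aldehyde dehydrogenases, 2 had a change that was called larger in red fruit. TRINITY_DN72438_c0_g2 had 7.25, 7.76 and 10.7 FPKM in LR at S5, against 8.07, 6.38 and 4.95 FPKM in LR at S1, where LB went up by 5.47 (difference between the species 5.08 ± 0.93, adjusted p = 0.00067). For TRINITY_DN91848_c1_g4 the LR libraries had 88.2, 73.9 and 87.8 FPKM at S5, against 12.1, 8.37 and 11 FPKM at S1 (4.30 ± 0.45, adjusted p = 4.57e-07). The other 2 unigenes of the enzyme were at 3.04 and 3.12 without passing the test (adjusted p = 0.0162 and 0.137). Of the 12 beta-glucosidase 11-like unigenes, 1 had a called difference above 0 and 1 below it. The change of TRINITY_DN97273_c4_g1 was larger in red fruit (2.48 ± 0.47, adjusted p = 0.000963). Beta-glucosidase TRINITY_DN80120_c0_g1 rose less in red fruit, which started higher. In LR it had 842, 972 and 741 FPKM at S5, against 4.83, 4.64 and 5.14 FPKM at S1 (-2.84 ± 0.58, adjusted p = 0.00187).

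A C4H and a CAD unigene fell in red fruit and did not fall in black fruit. C4H TRINITY_DN77732_c4_g1 had 66.3, 56.7 and 144 FPKM in LR at S5, against 72.0, 76.9 and 48.5 FPKM in LR at S1, and the stages overlapped there (-5.32 ± 0.64, adjusted p = 3.63e-06). CAD TRINITY_DN79928_c2_g1, which fell in LB, was called higher in LR, with 7.86, 9.5 and 24.2 FPKM at S5, against 2.91, 0 and 2.23 FPKM at S1 (-6.64 ± 0.74, adjusted p = 1.21e-06). CHS and LDOX were called higher in LR, and their differences between the species were -8.26 ± 0.91 (adjusted p = 9.55e-07) and -9.41 ± 0.77 (adjusted p = 1.1e-08). PAL had no called difference between the species in any of its 4 unigenes, with values of -1.05 to -2.36 and adjusted p of 0.0205 to 0.529.

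**Figure D4:**
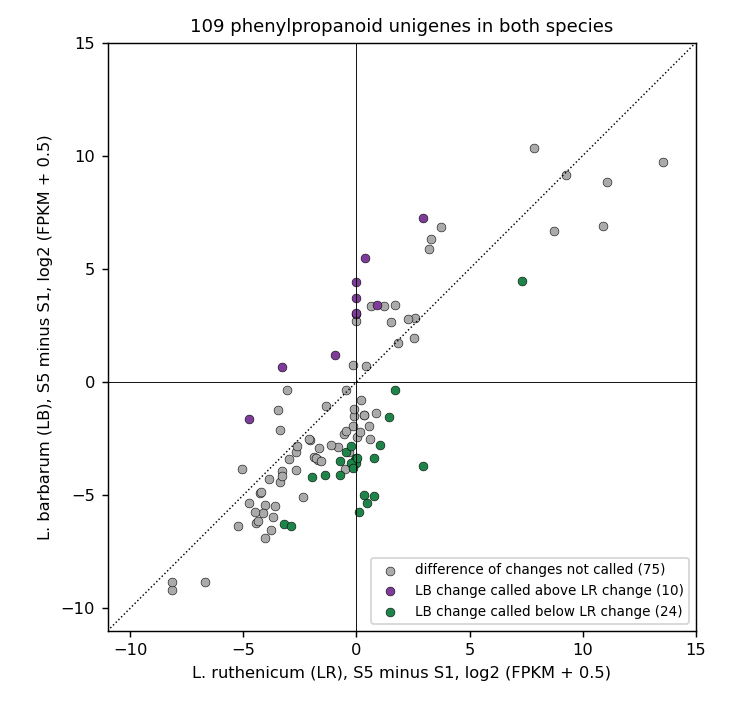
S5 minus S1 difference in LB (vertical axis) against that in LR (horizontal axis), both on the log2 (FPKM + 0.5) scale, for the 109 expressed phenylpropanoid unigenes (points). The dotted line marks equal change; the change of LB was called above that of LR for 10 unigenes (violet) and below it for 24 (green), and points on the vertical zero line include unigenes listed at 0 in LR.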

How the data were processed

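Fruit RNA of both species was sequenced in 30 libraries, 10 groups of 3. The authors filtered reads with Cutadapt 1.7.1, assembled them with Trinity, clustered transcripts with Corset and computed FPKM from uniquely located reads. Bowtie2 is named without a version. The deposited table gives FPKM with 2 decimals for 326276 unigenes, and no scaling between libraries is stated.

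From these, log2 (FPKM + 0.5) was fitted with limma 3.58.1 in R 4.3.3 (eBayes with its trend and robust options). The design held 1 mean per group, which left 20 residual degrees of freedom. The 111217 unigenes at an FPKM of 1 or more in 3 of 30 libraries were tested, two-sided, with Benjamini-Hochberg adjustment, and calls were counted over the 66783 expressed ones. Sums and counts were made with pandas in Python. The code was tested on simulated data.

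The members, lists, thresholds and naming rule were chosen with earlier results of these data known. Named are the 7 unigenes measured by qPCR; per phenylpropanoid enzyme the called unigenes with the largest rise and fall whose stages do not overlap (up to 3 each way for peroxidase and beta-glucosidase) and all of an enzyme with 4 or fewer, except 1 enzyme not reported here; per pathway list the called unigene with the largest difference; and 2 unannotated ones each way. Alternatives were offsets of 0.1 and 1, no filter, fits to 6 or 15 libraries, median-of-ratios scaling, quality weights, a replicate block and leaving out each library. Replicate numbers are shared by both stages, but no source ties a number to a tree.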

Additional observations from a re-analysis of the deposited data

Results flagged for a closer look

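The named unigenes below had an S5 minus S1 difference that differed between the species by the interaction test of limma. Values are the difference of LB minus that of LR on the log2 scale. The effects of species, growing place and water supply cannot be told apart here.

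Below 0 were TRINITY_DN53915_c0_g1 at -14.97, listed at 0 in LR at both stages, and TRINITY_DN64471_c5_g4 at -8.75, both without annotation. LDOX TRINITY_DN68066_c0_g2 was at -9.41 and CHS TRINITY_DN73389_c1_g2 at -8.26. Among the phenylpropanoid enzymes CAD TRINITY_DN79928_c2_g1 was at -6.64, coniferyl-alcohol glucosyltransferase TRINITY_DN73583_c0_g1 at -5.81 and C4H TRINITY_DN77732_c4_g1 at -5.32. CCoAOMT TRINITY_DN72819_c1_g1 was at -3.07 and caffeoylshikimate esterase TRINITY_DN99848_c3_g6 at -2.22. Of the beta-glucosidases TRINITY_DN71026_c1_g1 was at -5.84, TRINITY_DN91570_c3_g1 at -3.58 (listed at 0 in LR at both stages), TRINITY_DN73374_c0_g1 at -3.40 and TRINITY_DN80120_c0_g1 at -2.84. In LR TRINITY_DN71026_c1_g1 was low at both stages, with averages of 0.87 FPKM at S5 and 0.57 at S1. Of the pathway lists TRINITY_DN97261_c2_g1 (linoleic and alpha-linolenic acid) was at -5.33, TRINITY_DN89104_c1_g3 (plant-pathogen interaction) at -4.50, TRINITY_DN93336_c1_g2 (zeatin) at -4.47, TRINITY_DN71038_c0_g1 (pentose and glucuronate) at -4.16 and TRINITY_DN61432_c0_g2 (hormone signalling) at -3.78.

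Above 0 were TRINITY_DN97458_c3_g1 (flavone and flavonol) at 5.55, the coniferyl-aldehyde dehydrogenases TRINITY_DN72438_c0_g2 at 5.08 and TRINITY_DN91848_c1_g4 at 4.30, peroxidases TRINITY_DN100523_c4_g5 at 4.42 and TRINITY_DN76654_c0_g1 at 3.00, HCT TRINITY_DN98829_c5_g2 at 3.72 and TRINITY_DN79372_c3_g1 (fatty acid elongation) at 3.27. Both peroxidases and the HCT unigene were listed at 0 in LR at both stages. TRINITY_DN97458_c3_g1 was near 0 in LR too, with averages of 0.23 FPKM at S5 and 0.26 at S1.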

How the results depend on the processing

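Of 67 unigenes that the naming rule gives, 51 kept their direction and their side of the threshold under all 14 settings. A fit to only the 6 libraries, with 4 instead of 20 residual degrees of freedom, called 2196 unigenes higher and 4355 lower (5704 and 9116 in the fit to all 30), and 11 of their calls were lost. The interaction has no value in that fit or in the fit to 15 libraries, which hold no LR library. Quality weights raised the unigenes called between the species to 7414, against 4913, and the cause was not tested. Leaving out 1 library at a time gave 4484 to 5007 called higher and 7661 to 8439 lower, 23 to 26 and 61 to 62 of the phenylpropanoid unigenes, and 3844 to 4422 between the species. CHS TRINITY_DN73389_c1_g2, which was not called, turned its sign with median-of-ratios scaling (0.092), quality weights (0.044), without LB1-3 (0.18) and without LB5-2 (0.14), and ranged over -0.19 to 0.18 when 1 library was left out. Scaling changed counts of 9 pathway lists, by at most 2 unigenes. With the replicate number as a block 5789 were called higher, 9207 lower and 4927 between the species, and 25 phenylpropanoid unigenes higher and 70 lower. PAL TRINITY_DN66948_c1_g4 was then called (adjusted p = 0.00917), as it was with quality weights (0.00713). Deviations from the stage means correlated at -0.06, -0.10 and 0.03 between libraries of the same number, which gave no sign of pairing, and whether a number marks 1 tree is unknown. FPKM without counts gives no counting error.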

Other observations

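Unigenes of 1 assembly component, which Trinity builds from overlapping sequence, did not always move together. The expressed unigenes lay in 45394 components, of which 1902 held at least 2 called unigenes. In 292 of these (15.4%) 1 unigene was called higher and another lower at S5. Among the phenylpropanoid enzymes this was so in 1 component, that of peroxidase 3. TRINITY_DN100523_c4_g5 had 14.4, 11 and 11.3 FPKM at S5, against 0, 0 and 0.33 FPKM at S1, while TRINITY_DN100523_c4_g1 (peroxidase 3-like) was listed at 0 in all 3 S5 libraries and had 5.76, 7.57 and 7.04 FPKM at S1 (difference -3.86, adjusted p = 0.000564 by limma). Reads that match both unigenes of a component were not counted, since the authors used uniquely located reads, so levels of close copies are uncertain.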
